A study of Mus musculus with 6 samples.

Results

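Endothelial cells of the arterial and of the venous end of the brain's vessel tree were compared within the 3 Control libraries of a droplet single-cell RNA-seq series on adult mouse brain microvessels. The cells were chosen by measured values, namely their own UMIs (unique molecular identifiers, each counting 1 captured transcript). An endothelial cell had at least 1000 UMIs, at most 15% of them mitochondrial, at least 3 of the 5 genes Pecam1, Cdh5, Flt1, Ly6c1 and Esam, at most 2 UMIs over the 6 mural and myeloid genes Vtn, Rgs5, Acta2, Tagln, C1qa and Ctss, and 0 UMIs of Plvap. An arterial cell also had at least 3 of the 6 genes Gkn3, Bmx, Sema3g, Hey1, Efnb2 and Stmn2 and 0 UMIs of Ackr1. A venous cell had at least 3 of the 6 genes Ackr1, Adgrg6, Lrg1, Vwf, Col6a6 and Ch25h and 0 UMIs of Gkn3 and Sema3g. These gates chose 1687 arterial and 503 venous cells, together 2190 of the 12114 endothelial cells among the 16411 Control barcodes. All 6 libraries of the series hold 30586 barcodes. The 3 cells that passed both gates were left out, and the remaining 9921 endothelial cells are called other endothelial cells here.

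Control mice were C57Bl6 with the genotype Cldn5 fl/fl, R26 YFP/YFP and no Cre, so their floxed Cldn5 alleles stayed in place. Cldn5 iECKO mice had the same alleles plus Cdh5-creERT2+, a tamoxifen-inducible Cre driven by an endothelial promoter that is active along the whole vessel tree, and served only as separate libraries for the same gates. Mice of both genotypes, controls included, were given tamoxifen by gavage on 3 days in a row at about 3 months of age. Vessel fragments were caught with beads carrying an antibody to PECAM1 and dissociated with collagenases and a trypsin-like enzyme, and libraries were made with the 10x Genomics v3.1 kit. Whether each library holds 1 mouse or several is not stated in the labels. A p-value here is therefore read against library-to-library spread, which may be technical.

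As background, blood reaches the brain through arteries and arterioles, passes the capillaries and leaves through venules and veins, and endothelial gene expression changes gradually along this route. Notch signalling and SOX17 maintain arterial identity, and the nuclear receptor COUP-TFII, the product of Nr2f2, maintains venous identity by repressing Notch genes. Arterial endothelium lies on elastic tissue and smooth muscle and conducts electrical signals through gap junctions. Venules are the main place where leukocytes leave the blood, and their endothelium carries receptors for inflammatory signals.

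The arterial cells were 557, 587 and 543 in Control libraries 1, 2 and 3, which is 12.5%, 12.9% and 17.4% of the endothelial cells. The venous cells were 88, 229 and 186, which is 1.97%, 5.04% and 5.97%. The exact 95% binomial intervals, which cover counting error only, were 1.59% to 2.43% for venous cells of library 1 and 5.16% to 6.86% for those of library 3. These shares move with depth: with every cell thinned to 2000 UMIs before gating, 5.84%, 6.75% and 7.39% of cells were arterial and 0.94%, 2.36% and 2.57% venous. Venous cells were also deeper, with median UMIs of 17261, 12730 and 15853 against 5522, 5462 and 6681 in arterial cells. Their median mitochondrial percentages were 4.21, 4.82 and 3.74 against 3.03, 3.08 and 2.70. The summed libraries of the classes held 4022368 to 4933871 UMIs for arterial and 1695006 to 3464984 for venous cells.

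The cells were also described by defining markers that the gates did not use. These marker lists were chosen with earlier results of these data known, so they are no independent check. Of 16 further arterial markers tested, 15 were higher in arterial cells, and their summed level was 3229.6 to 5264 CPM (the share of the class sum of UMIs, scaled to 1000000) in arterial against 604 to 755 CPM in venous sums. Of 11 further venous markers tested, 10 were higher in venous cells, with summed levels of 915 to 1433 CPM in arterial against 6079 to 9639 CPM in venous sums. By the same test, 16.7% of all tested genes were higher in arterial and 17.7% in venous cells. Several of these markers, such as Fbln5, Gja4 and Nr2f2, are also among the largest differences given below. Summed smooth muscle markers lay at 74.5 to 100.2 CPM in arterial and 70.8 to 93.8 CPM in venous sums, with Cnn1 and Actg2 at 0 in both. Most of each sum was Mylk, at 57.9, 80.1 and 62.4 CPM in arterial and 49.6, 47.4 and 68.4 CPM in venous sums. Mustn1 was called venous, at 17.1, 14.7 and 17.3 against 4.80, 3.48 and 5.47 CPM. Myl9 was higher in arterial sums but did not pass. Myh11 had 1.68, 4.72 and 1.82 CPM in arterial and 0, 1.77 and 0.866 CPM in venous sums. The part of each of the following cell types in the results was not tested. Summed pericyte markers lay at 4.26 to 8.45 and 6.49 to 13.6 CPM, and microglial markers at 38.2 to 44.5 and 34.2 to 38.6 CPM, against 23404 to 35152 CPM in the microglia of the same libraries. Fibroblast markers were at 8.65 to 24.6 CPM in arterial and 2.36 to 3.17 CPM in venous sums, and lymphatic endothelial markers at 0.746 to 1.01 and 8.84 to 18.3 CPM. Of the lymphatic markers, Lyve1 had 6.49, 3.54 and 3.46 CPM and Ccl21a 8.85, 3.24 and 7.79 CPM in the venous sums. Both were called venous. Mmrn1 was also higher there, at 2.95, 2.06 and 2.89 CPM. Prox1 stood at 0.497 CPM or less in every sum and Pdpn at 0 in both classes. Erythrocyte transcripts ranged from 2879.6 to 10495 CPM in arterial and from 188 to 8357 CPM in venous sums, with library 3 the lowest venous one. Any 2 of the 6 libraries shared 0 to 16 cell barcodes.

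The genes of the gates themselves describe the classes and were not tested. Gkn3, a marker of brain arteries, had 849, 726 and 543 CPM in the arterial sums of libraries 1, 2 and 3, and Bmx, a tyrosine kinase of arterial endothelium, 196, 378 and 259.8 CPM. Ackr1, the chemokine-binding receptor of venules, had 89.7, 102 and 141 CPM in the venous sums. Vwf, the von Willebrand factor gene, was not limited to venous cells: it had 206, 397 and 213 CPM in arterial, 1411, 1890.1 and 1554 CPM in venous and 213, 275 and 241 CPM in other endothelial sums. Just outside the arterial threshold stood 428, 417 and 302 cells with 2 of its genes, and just inside it 231, 227 and 211 with 3. For the venous threshold these were 132, 151 and 125 against 26, 83 and 62 cells. Alpl, which no gate used, had 172, 199.6 and 149 CPM in cells with 2 arterial gate genes detected and 256, 316 and 240.0 CPM in cells with 3. Nr2f2 had 182, 182 and 222 CPM in cells with 2 venous gate genes and 245, 254 and 330.2 CPM in cells with 3.

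Counts were summed per library and class, and the 3 arterial sums were compared with the 3 venous sums of the same libraries, with the library as a block. Of 10736 genes tested, 1793 were higher in arterial cells and 1903 higher in venous cells by edgeR's quasi-likelihood test with a Benjamini-Hochberg adjusted p under 0.05. The background shares are thus 16.7% of tested genes called arterial and 17.7% called venous. The difference is given as log2 of arterial over venous, so a negative value means a higher level in venous cells. A log2 difference of at least 1 was found for 547 of the arterial and 494 of the venous calls, and one of at least 2 for 232 and 177. The median over all tested genes was -0.01. Because cells were chosen by transcripts of the same cells, any gene that varies along with the gate genes from cell to cell had to differ, and the test measures how evenly it did so across the 3 libraries. In what follows, sets of 3 values give libraries 1, 2 and 3, a log2 difference is given ± its standard error, and arterial values come first beside a positive difference and venous values first beside a negative one. Without the library block 803 and 749 genes were called.

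**Figure D1:**
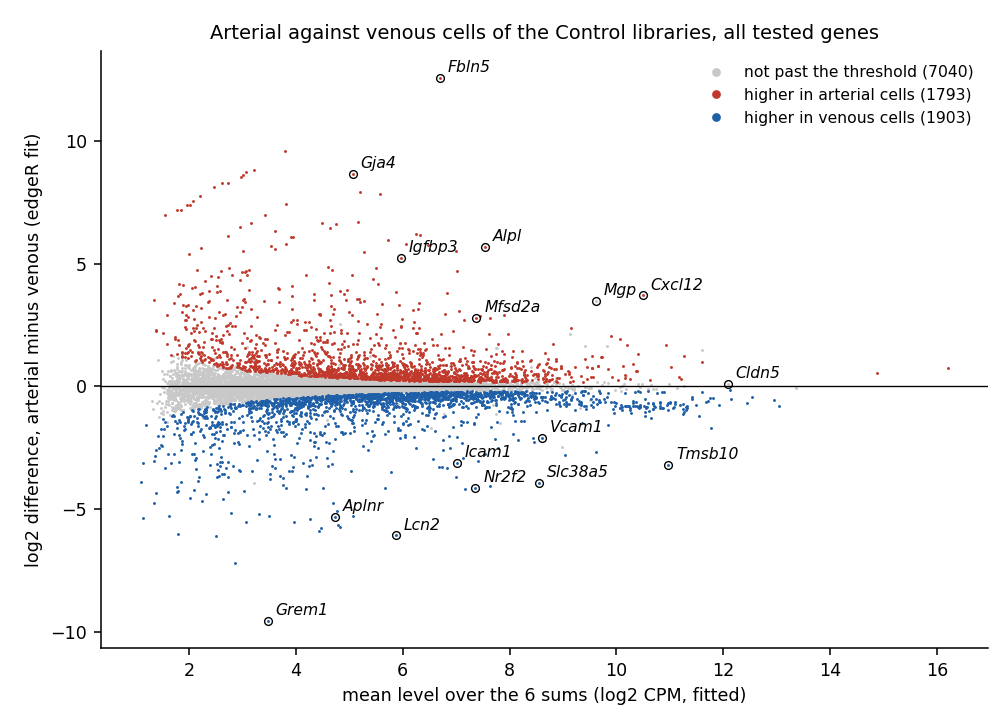
Log2 difference between arterial and venous cells of the Control libraries (vertical axis) against the mean level over the 6 sums in fitted log2 CPM (horizontal axis), 1 point per tested gene, red for the 1793 genes called higher in arterial and blue for the 1903 called higher in venous cells. Named genes are circled, and differences occur at every level, from Grem1 and Gja4 to Cxcl12 and Tmsb10, while Cldn5 sits near 0. Fitted values of genes with 0 UMIs in 1 class, such as Fbln5 and Grem1, depend on the prior count.

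Arterial genes with the largest differences included the fibulin gene Fbln5 and the connexin gene Gja4. Fbln5 encodes fibulin-5, which organises elastic fibres, and lies on chromosome 12 (GRCm38, 101746565 to 101819055, minus strand). It had 101, 316 and 159.9 CPM in the 3 arterial sums and 0 UMIs in each venous sum, so it was at least 539-fold higher, taking 3 UMIs over the venous group as the floor. Gja4, the gene of connexin 37 (chromosome 4, 127311421 to 127314039, minus strand), had 43.2, 78.3 and 55.9 CPM in arterial and 0, 0.295 and 0 CPM in venous sums. With 1 venous UMI in all, the ratio was 503-fold, with a 95% counting interval of 89.96 to 19881. The groups did not overlap for either gene, nor for any other gene of this paragraph, because the leading genes were chosen for no overlap.

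Cytl1, which encodes a small secreted protein, had 66.8, 142 and 47.02 against 0, 0.295 and 0.577 CPM, and Col18a1, whose collagen XVIII yields endostatin, 57.9, 78.8 and 59.6 against 0.590, 0 and 0.289 CPM. On 3 venous UMIs in all, the Cytl1 ratio was 235-fold, with a 95% counting interval of 80.3 to 1143. On 2, the Col18a1 ratio was 278-fold, with a 95% counting interval of 76.7 to 2297. Cdh13, the gene of T-cadherin, had 50.7, 85.5 and 54.1 CPM in arterial and 0, 1.47 and 0 CPM in venous sums. Unc5b, a netrin receptor, had 128, 121 and 197 against 1.77, 2.65 and 1.44 CPM (log2 difference 6.19 ± 0.18, adjusted p = 4.7e-19). So few UMIs of these genes were found in venous cells that single UMIs weigh on their ratios.

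Alpl, tissue-nonspecific alkaline phosphatase, is a long-used histochemical stain of brain arterioles (chromosome 4, 137741733 to 137796384, minus strand). Its level was 309, 408 and 337 CPM in arterial, 72.9, 90.7 and 67.4 CPM in other endothelial and 4.13, 9.72 and 5.19 CPM in venous sums, a log2 difference of 5.71 ± 0.12 (adjusted p = 1.4e-21). Fbln2, a second fibulin, had 134, 151 and 211 against 1.77, 4.12 and 2.60 CPM, and Clu, the secreted chaperone clusterin, 165, 369 and 171 against 4.13, 3.83 and 6.93 CPM. S100a6, a calcium-binding protein gene, was at 104, 107 and 71.7 against 0.590, 2.36 and 0.866 CPM and was also abundant in microglia (85.9 CPM on average). Col14a1, a fibril-associated collagen, had 58.4, 81.5 and 65.3 against 0, 3.54 and 0.289 CPM. Rad54b, listed for DNA repair, had 120.3, 115 and 131 against 2.95, 1.77 and 2.02 CPM, but it overlaps Fsbp on the same strand, so its UMIs cannot be assigned with certainty. Clu missed the threshold with equal cell numbers (adjusted p = 0.0559).

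The leading venous genes had smaller differences than the arterial ones, and their arterial level was seldom 0. Arterial sums held more UMIs than venous sums in each library, and the part of this depth was not tested. Lcn2, the iron-sequestering acute-phase protein lipocalin-2 (chromosome 2, 32384633 to 32388252, minus strand), had 129.8, 125 and 124 CPM in the 3 venous sums and 3.12, 1.74 and 1.01 CPM in the arterial sums (log2 difference -6.08 ± 0.17, adjusted p = 3.5e-19). Its venous values lay within a few CPM of each other, although the libraries differed in venous cell number. Nr2f2, the venous fate regulator (chromosome 7, 70351944 to 70366735, minus strand, with the noncoding B130024G19Rik on the other strand), had 279, 309.9 and 373 against 21.6, 13.7 and 21.1 CPM, a log2 difference of -4.15 ± 0.10 (adjusted p = 4.7e-19). Il1r1, the receptor for interleukin-1 (chromosome 1, 40225080 to 40317257, plus strand), had 341, 292 and 223 against 21.1, 14.7 and 13.6 CPM (-4.16 ± 0.10). Every venous value was above every arterial value for these genes and for the rest of this paragraph, as their choice required. Slc38a5, a glutamine transporter (chromosome X, 8271133 to 8280179, plus strand), had 765, 622 and 747 CPM in venous, 285, 223 and 321 CPM in other endothelial and 68.9, 29.3 and 51.1 CPM in arterial sums, with the other cells between both classes in each library.

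Nrp2, a co-receptor for semaphorins and VEGF-C, had 254, 417 and 471 against 24.7, 20.6 and 24.1 CPM, and Wnt5a, a ligand of noncanonical Wnt signalling, 197, 266 and 269 against 22.1, 16.7 and 19.7 CPM. Flrt2, a guidance ligand, had 145, 223 and 270.1 against 23.3, 18.1 and 24.5 CPM. Car14, a carbonic anhydrase, had 99.1, 98.1 and 128 against 8.89, 8.70 and 12.4 CPM, Fmo2, a flavin monooxygenase, 147, 218 and 208 against 20.2, 20.9 and 19.7 CPM, and Adh1, an alcohol dehydrogenase, 51.9, 64.8 and 76.2 against 2.40, 11.9 and 4.46 CPM. Fxyd6, a regulator of the sodium pump, was at 94.98, 104 and 112 against 7.21, 6.22 and 4.86 CPM. Rnase4, a secreted ribonuclease gene, had 176, 215 and 208 against 25.2, 19.6 and 19.3 CPM, but it overlaps Ang on the same strand and averaged 608 CPM in microglia. Summed microglial markers were not higher in venous sums, at 34.2 to 38.6 CPM against 38.2 to 44.5 CPM in arterial ones. Adh1 missed the threshold without the highest Scrublet doublet scores (adjusted p = 0.0503).

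**Figure D2:**
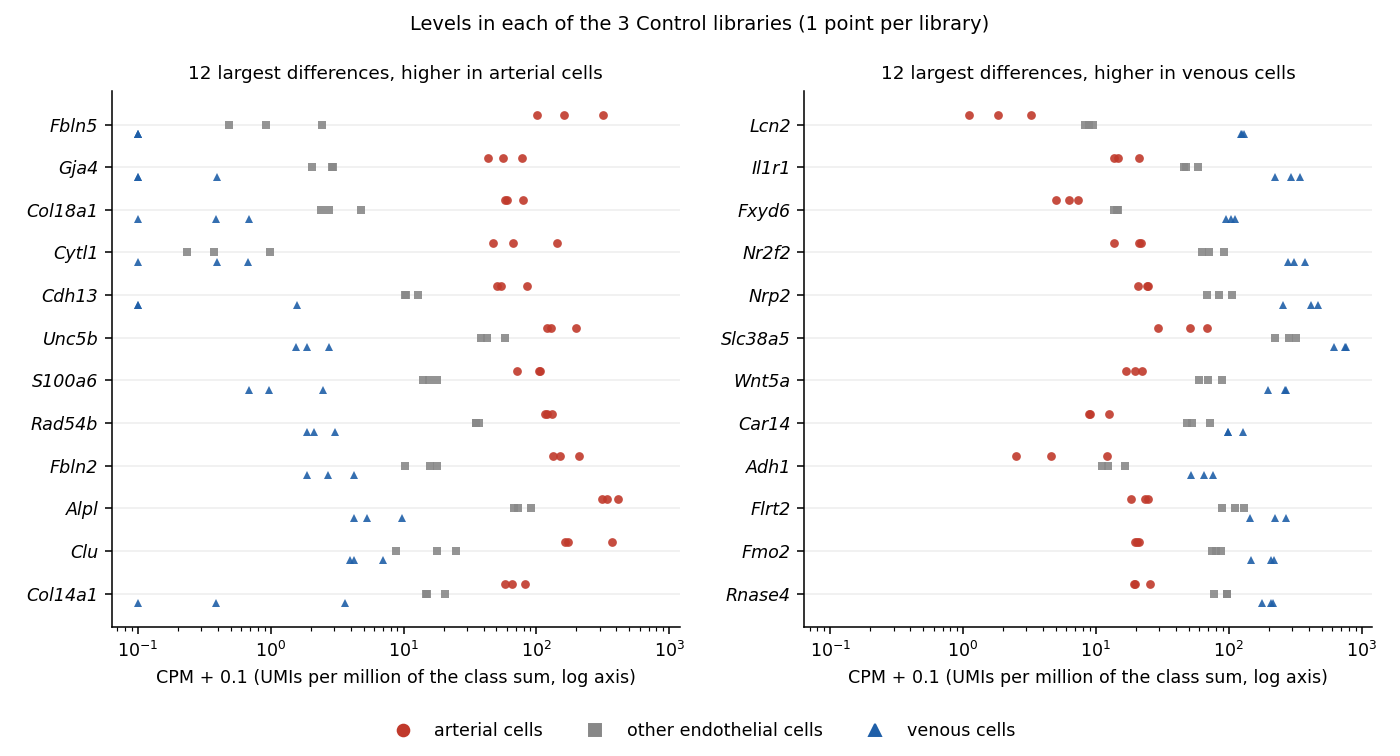
CPM plus 0.1 on a log axis in each of the 3 Control libraries for the 12 genes with the largest differences each way, with circles for arterial, squares for other endothelial and triangles for venous sums. Arterial and venous points are separate for all 24 genes, which the choice of these genes required. The mean of the other endothelial cells lies between the arterial and venous means for all 24, a position that the choice of genes and cells favours. Points at the left edge of the arterial panel are sums with 0 UMIs.

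For all 12 arterial and all 12 venous genes the mean level of the other endothelial cells lay between the means of the 2 classes. Choosing genes by their large differences, and other cells by failing both gates, favours this position. The counts here therefore describe the choice as well as the cells. Summed capillary markers were 9234 to 11063 CPM in these cells, 6673 to 9656 CPM in arterial and 2917 to 3890.1 CPM in venous sums. Among all arterial calls with a log2 difference of at least 1 the other cells lay between the classes for 421 of 547. For 67 they were below both classes and for 59 above both. Among the venous calls of that size they lay between for 378 of 494, with 99 below both and 17 above both. No such share over all tested genes is given. Vegfc is an example of a gene low in the middle, with 160.5, 159.9 and 168 CPM in arterial, 59.00, 46.8 and 55.4 CPM in venous and 15.04, 15.7 and 14.5 CPM in other sums. This lymphangiogenic growth factor was higher in arterial than venous cells (1.57 ± 0.09, adjusted p = 4.5e-13).

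Promoter sequences were searched for 4 short motifs, because Notch, SOX, nuclear receptor and KLF factors are known in arteriovenous identity. RefSeq promoters (GRCm38.p6, 250 bases before to 50 after the start) were matched for 8498 of the tested genes, and both strands were searched. None of the motifs contains another. TGGGAA, the core of the site of the Notch effector RBPJ, was in 22.7% of all these promoters, in 23.7% of those of arterial calls and in 23.3% of those of venous calls. ATTGTT, a SOX motif, was in 5.83%, 6.53% and 5.76%, and AGGTCA, a nuclear receptor core motif, in 11.6%, 10.5% and 13.4%. CACCC, a KLF motif, was in 62.0%, 66.9% and 64.8%. Among the calls with a log2 difference of at least 1 it was in 71.9% of arterial and 69.3% of venous promoters, and the SOX motif in 8.31% and 7.46%. These shares were not tested. The RBPJ letters occur before the start of a leading gene of either class, shown here as 60 bases upstream of Fbln5, called arterial (chr12:101819240-101819299, minus strand), and of Il1r1, called venous (chr1:40224858-40224917, plus strand), with the motif or its reverse complement in capitals.
Fbln5: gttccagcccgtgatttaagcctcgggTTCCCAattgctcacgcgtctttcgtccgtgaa
Il1r1: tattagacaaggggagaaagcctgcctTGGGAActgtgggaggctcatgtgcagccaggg
A match describes the letters in the window and says nothing of binding.

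Connexins and Notch genes describe the arterial side. Beside the counts of this and each later list stand the shares of all tested genes, 16.7% called arterial and 17.7% venous. Of 4 connexin genes tested, 3 were higher in arterial and 0 in venous cells. Beside Gja4, the gene of connexin 40, Gja5, had 9.61, 17.9 and 11.8 CPM in arterial sums and 0 UMIs in venous ones, at least 36.9-fold more, and Gja1, the gene of connexin 43, 68.5, 68.6 and 87.2 against 8.85, 9.72 and 9.81 CPM (2.94 ± 0.14, adjusted p = 7.3e-15). Of 23 genes of Notch signalling tested, 11 were higher in arterial and 3 in venous cells, with a median log2 difference of 0.25 beside -0.01 over all genes. The ligands split. Dll4, the ligand needed for artery formation, had 99.9, 117 and 154 against 4.72, 15.6 and 18.2 CPM (3.14 ± 0.14, adjusted p = 1e-13), Jag2 308, 282 and 351 against 91.4, 53.6 and 68.1 CPM (2.14 ± 0.14) and Jag1 83.1, 151 and 108 against 43.1, 44.2 and 51.1 CPM (1.27 ± 0.18). Dll1 was higher in venous cells, at 41.3, 16.5 and 22.8 against 11.3, 8.70 and 6.89 CPM (-1.60 ± 0.20), with library 1 the highest venous sum and no overlap. The receptor Notch4 had 107, 98.2 and 90.8 against 50.1, 28.9 and 28.6 CPM (1.48 ± 0.13). Hey2, a Notch target that represses transcription, had 4.08, 17.4 and 6.49 CPM in arterial sums and 1 UMI in each venous sum, a ratio of 25.9-fold, with a 95% counting interval of 8.64 to 127. Lfng, a glycosyltransferase that tunes the receptors' response to their ligands, was the largest of the venous Notch calls, at 152, 93.7 and 95.2 against 36.3, 19.9 and 27.6 CPM (-2.07 ± 0.10, adjusted p = 1.7e-14). Jag2 missed the threshold with gates on cells thinned to 2000 UMIs (adjusted p = 0.0563), and Jag1 with gates of at least 2 genes (0.104).

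Transcription factors of arterial and venous fate went both ways, with 15 of 32 higher in arterial and 12 in venous cells. Sox17, which directs arterial differentiation, had a small difference: it had 582, 368 and 427 CPM in arterial and 387, 196 and 216 CPM in venous sums, a log2 difference of 0.78 ± 0.09 (adjusted p = 1.5e-07). Each library had more in arterial cells, but the groups overlapped, since arterial library 2 lay below venous library 1. Prdm16, a regulator of arterial identity, had 88.9, 76.8 and 131 against 28.3, 23.3 and 32.6 CPM (1.78 ± 0.11), and Ets1, an endothelial ETS factor, 322, 336 and 446 against 135, 148 and 185 CPM (1.19 ± 0.07). Meox1, a homeobox gene, was called arterial at 1.83 ± 0.41 from 5.04, 3.48 and 9.53 against 2.36, 0.884 and 2.02 CPM, although the other endothelial cells had more than either, at 17.6, 16.1 and 20.7 CPM. It missed the threshold without Control library 3 (1.46, adjusted p = 0.0546), with DESeq2 (0.105) and in cells of 5000 to 20000 UMIs (0.138). Venous calls besides Nr2f2 included Tshz2, a zinc-finger gene, at 241, 319 and 335 against 144, 133 and 183 CPM (-1.01 ± 0.08), Foxo1, a factor that restrains endothelial growth, at -0.82 ± 0.08, and Ahr, the aryl hydrocarbon receptor, at -1.17 ± 0.14. Klf4, a flow-induced factor, had 1183, 907 and 959 CPM in arterial and 1466, 864 and 1097 CPM in venous sums and did not pass (adjusted p = 0.076). Sox17 missed the threshold without the library block (adjusted p = 0.161).

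Guidance genes had 11 arterial and 6 venous calls among 21. Arterial ones beside Unc5b were Ntn4, a netrin, with 32.2, 55.9 and 38.7 against 2.36, 6.48 and 4.62 CPM (3.14 ± 0.19), Sema3f, a ligand for neuropilin-2, with 10.3, 16.9 and 10.1 against 0, 0.884 and 0.289 CPM (4.67 ± 0.43), and Efna5, a membrane-bound ephrin, with 2.88, 10.2 and 6.49 against 0, 0 and 0.577 CPM, a ratio of 27.7-fold, with a 95% counting interval of 7.44 to 233 on 2 venous UMIs. The receptor Nrp2 was on the venous side, as given above. Also higher in venous cells, Plxnb2, a semaphorin receptor, had 22.4, 35.1 and 29.7 against 1.92, 3.73 and 2.43 CPM (-3.47 ± 0.22) and averaged 167 CPM in microglia. Slit2, a repulsive ligand, had 10.6, 15.9 and 14.1 against 1.44, 1.49 and 1.42 CPM (-3.25 ± 0.30), and Sema6a 153, 261 and 311 against 70.4, 80.8 and 102 CPM (-1.55 ± 0.09). Ephb4, the venous receptor for the arterial gate gene Efnb2, had 130.4, 119.9 and 116 against 64.6, 56.7 and 64.5 CPM (-1.02 ± 0.09, adjusted p = 4.3e-10).

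Elastic fibre and basement membrane genes leaned most to the arterial side of the longer lists: 23 of 31 tested were higher in arterial and 2 in venous cells, and the median log2 difference was 1.19. Lox, which cross-links elastin and collagen, had 6.73, 21.4 and 9.32 against 0, 0.295 and 0 CPM, a ratio of 104-fold, with a 95% counting interval of 18.5 to 4146 on 1 venous UMI. Mgp, an inhibitor of vessel wall calcification, was well separated, with 1010.1, 2301 and 936 CPM in arterial and 127, 99.3 and 114 CPM in venous sums, yet did not pass (log2 difference 3.47 ± 0.57, adjusted p = 0.06). Arterial library 2 was more than double libraries 1 and 3 for it. Eln, the elastin gene, had 82.6, 261 and 108 against 66.1, 91.3 and 73.9 CPM (0.85 ± 0.39, adjusted p = 0.27), with the groups overlapping and the same library highest. In cells with no UMI of any marker of the other class its difference was -0.99 and passed as venous (adjusted p = 0.0226). Summed fibroblast markers, which were 8.65 to 24.6 CPM in arterial against 2.36 to 3.17 CPM in venous sums, moved with these genes and had their highest value in the same library, and their part in the result was not tested. Most of the arterial sum was 1 collagen gene, Col3a1, at 5.52, 15.9 and 10.9 CPM in arterial and 0.590, 0.589 and 0.289 CPM in venous sums. Igf2 had 2.40, 3.98 and 3.04 CPM in arterial and 0, 0.589 and 0.577 CPM in venous sums. Pdgfra had 0.721, 3.98 and 2.03 against 0, 0.589 and 0.866 CPM, both with arterial library 2 highest. Col1a2 did not lean that way, at 0, 0.497 and 0.203 against 1.77, 0.295 and 0.577 CPM. Col1a1, Dcn, Lum and Slc6a13 stood at 0.577 CPM or less in every sum of both classes. The 2 venous calls were Tgm2, a transglutaminase that cross-links matrix, at 396, 464 and 415 against 125, 119 and 104 CPM (-1.92 ± 0.08, adjusted p = 1.8e-16), and Ltbp3, which binds latent TGF-beta, at 9.44, 10.9 and 7.50 against 1.68, 4.97 and 2.23 CPM (-1.66 ± 0.32). Ltbp3 missed the threshold with equal cell numbers (adjusted p = 0.3).

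Inflammatory receptors and effectors leaned to the venous side. Of 26 genes for cytokine receptors, acute phase proteins and prostaglandin synthesis, 18 were higher in venous and 3 in arterial cells, with a median of -0.97. Both cyclooxygenase genes were venous. Ptgs2, the inducible one, had 117, 225 and 174 against 19.2, 29.6 and 19.5 CPM (-2.97 ± 0.10, adjusted p = 8.9e-18), and Ptgs1, the constitutive one, 25.96, 26.8 and 30.9 against 2.40, 2.49 and 1.62 CPM (-3.74 ± 0.24), beside 422 CPM in microglia. The arterial calls were interferon and interleukin receptor genes, Il10rb at 200.3, 180.0 and 263 against 89.7, 92.8 and 123 CPM (1.02 ± 0.08), Ifnar1 at 0.50 ± 0.07 and Ifngr1 at 0.43 ± 0.09. Ifnar1 lost the call without the library block (adjusted p = 0.242). Ifngr1 lost it with DESeq2 (0.0783), without the block (0.0674), in cells with no UMI of any marker of the other class (0.107) and in cells of 5000 to 20000 UMIs (0.0859). Summed lymphocyte markers were also higher in venous cells, at 8.54 to 19.9 CPM against 2.49 to 7.30 CPM in arterial sums. Cd79a, a B cell gene called venous, made up most of the venous sums, while the T cell gene Cd3e was at 0 in each venous sum. Other members were not all absent there. Nkg7 had 0, 0 and 4.04 CPM in venous sums and 0 in arterial ones, and Ptprc 0, 0.589 and 2.60 against 0.480, 0 and 1.22 CPM. Ms4a1 and Trbc2 stood at 1.22 CPM or less in every sum of both classes. Summed astrocyte markers were 24.8 to 46.2 CPM in venous and 10.8 to 26.8 CPM in arterial sums, where Slc1a3 was called venous and Aqp4 stood at 0.289 CPM or less. The part of both cell types in these results was not tested.

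Leukocyte adhesion and chemokine genes were divided, with 6 arterial and 6 venous calls among 19. Icam1 and Vcam1, which bind leukocyte integrins, were higher in venous cells. Icam1 had 217, 350.3 and 143 against 29.1, 32.8 and 19.9 CPM (-3.12 ± 0.10, adjusted p = 2.3e-18), and Vcam1 547, 696 and 648 against 104, 213 and 149 CPM (-2.11 ± 0.16, adjusted p = 0.00032). Cxcl10, an interferon-induced chemokine, varied between venous libraries, with 8.26, 84.9 and 37.2 CPM in venous and 0.961, 0.497 and 0.608 CPM in arterial sums (-5.89 ± 0.34). Cxcl12, the chemokine that retains CXCR4-bearing cells, was an arterial and capillary gene: it had 2409.8, 2346 and 3402 CPM in arterial, 2183, 2377 and 2792 CPM in other endothelial and 161, 246 and 193 CPM in venous sums (3.71 ± 0.22, adjusted p = 0.0026). Without Control library 1 the difference was 3.69 and did not pass (adjusted p = 0.122). Mcam, an adhesion molecule of the immunoglobulin family, had 23.5, 14.7 and 15.6 against 3.54, 2.65 and 3.75 CPM (2.31 ± 0.25), and Cd34, a sialomucin, 544, 493 and 633 against 273, 248 and 300.1 CPM (0.97 ± 0.07). Cxcl10 missed the threshold with gates of at least 2 genes (adjusted p = 0.0621).

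**Figure D3:**
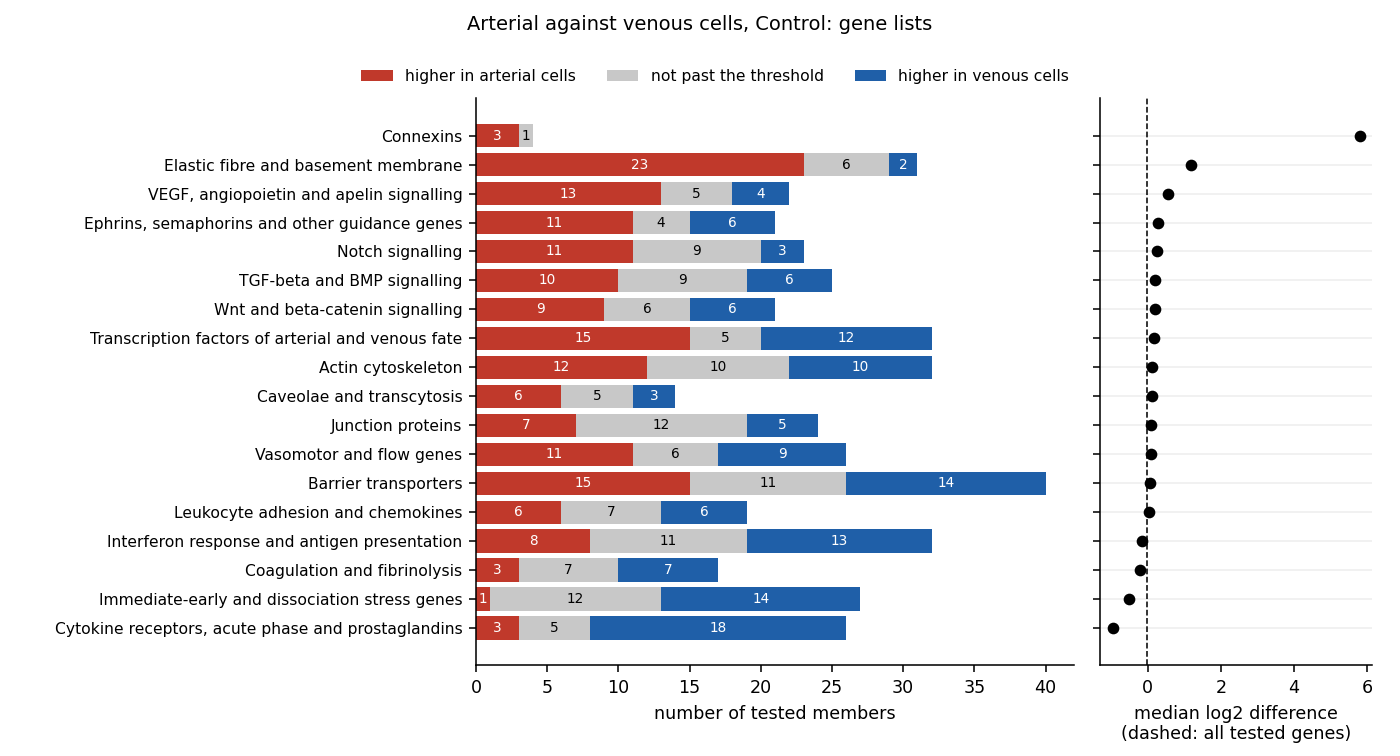
Left, the number of tested members of 18 gene lists that were higher in arterial cells (red), higher in venous cells (blue) or not past the threshold (grey), with the lists ordered by their median. Of all tested genes, 16.7% were called arterial and 17.7% venous. Right, the median log2 difference of the tested members of each list, beside the median of all tested genes (dashed), with connexins and matrix genes highest and the cytokine receptor list lowest.

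Barrier transporters, which carry nutrients and drugs across brain endothelium, showed no common direction: 15 of 40 were higher in arterial and 14 in venous cells. Mfsd2a, the lysophosphatidylcholine transporter that limits transcytosis, had 331, 217 and 306 CPM in arterial, 343, 257 and 286 CPM in other endothelial and 49.6, 35.9 and 34.6 CPM in venous sums (2.79 ± 0.10, adjusted p = 2.2e-17). Slco1c1, the thyroxine transporter, had 1708, 1578 and 1882 against 401, 428 and 476 CPM (1.94 ± 0.07), Slc1a1, a glutamate transporter, 117, 88.01 and 128 against 36.6, 30.3 and 33.8 CPM (1.68 ± 0.10) and Lrp8, a lipoprotein receptor, 146, 136 and 163 against 34.2, 56.6 and 38.96 CPM (1.71 ± 0.13). Venous calls beside Slc38a5 were Slc39a8, a zinc and manganese importer, with 166, 221 and 228 against 73.7, 61.2 and 78.6 CPM (-1.58 ± 0.09), Slc52a3, a riboflavin transporter (-1.27 ± 0.10), and Lepr, the leptin receptor (-1.07 ± 0.21). The glucose transporter Slc2a1 had 1910.1, 1249.8 and 1779 CPM in arterial and 2252, 1169 and 1282 CPM in venous sums (0.06 ± 0.18, adjusted p = 0.85), and the efflux pump Abcb1a 1279, 1422 and 1603 against 1039, 1393 and 1423 CPM (0.12 ± 0.06, adjusted p = 0.15). Some transporters were low at both ends. The transferrin receptor Tfrc had 158, 175 and 222 CPM in arterial, 107, 144 and 154 CPM in venous and 388, 495 and 478 CPM in other endothelial sums, a small arterial call (0.40 ± 0.08). The monocarboxylate transporter Slc16a1, a venous call (-0.97 ± 0.20), had 208, 239 and 395 CPM in arterial, 266, 617 and 791 CPM in venous and 538, 841 and 1044 CPM in other endothelial sums. In each library the other cells had most of both. Tfrc lost the call without the library block (adjusted p = 0.145), with equal cell numbers (0.246), with cells thinned to 2000 UMIs (0.257) and in cells of 5000 to 20000 UMIs (0.319), and with gates of at least 2 genes it was -0.03. Slc16a1 lost it in 4 alternatives, with adjusted p of 0.0583 to 0.0645: without the library block, with gates of at least 4 genes, without the highest Scrublet doublet scores and with 0 UMIs of mural and myeloid genes. Lepr lost it with equal cell numbers (0.139).

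Claudin-5 itself differed little between the classes. Cldn5 (chromosome 16, 18776847 to 18778262, plus strand) had 4437, 4104 and 5219 CPM in arterial, 3512, 3969 and 5008 CPM in venous and 5038, 4207 and 5779 CPM in other endothelial sums, a log2 difference of 0.10 ± 0.05 (adjusted p = 0.15). With gates of at least 2 genes it was -0.06. Among 24 junction genes tested, 7 were higher in arterial, 5 in venous cells and 12 did not pass. The venous count was near the share of all tested genes, 17.7%. Arterial ones beside Cdh13 were Cgnl1, a cingulin-like plaque protein, with 272, 339.9 and 407 against 80.8, 146 and 173 CPM (1.32 ± 0.08), and Ptprm, a receptor phosphatase at cell contacts (1.30 ± 0.08). Among the venous ones, Nectin2, an immunoglobulin-like adhesion molecule, had 33.04, 37.4 and 42.4 against 9.13, 7.46 and 13.2 CPM (-1.97 ± 0.16), and Cdh2, N-cadherin, 36.6, 51.3 and 56.3 against 18.5, 15.9 and 24.1 CPM (-1.36 ± 0.14). Caveolar and transcytosis genes gave 6 arterial and 3 venous calls among 14, the venous count again near the share of all tested genes. The coat gene Cavin1 was higher in venous cells (-0.60 ± 0.07) and the membrane-bending Ehd4 in arterial cells (0.66 ± 0.09). Ehd4 missed the threshold in cells with no UMI of any marker of the other class (adjusted p = 0.0926).

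Growth factor pathways divided by component. In the TGF-beta and BMP list 10 of 25 were arterial and 6 venous. Among ligands, Tgfb2 was arterial with 199, 459 and 601 against 34.2, 65.4 and 61.8 CPM (2.90 ± 0.11, adjusted p = 4.7e-11), and Bmp2 venous with 7.67, 33.3 and 42.4 against 2.64, 3.98 and 4.86 CPM (-2.90 ± 0.22). Bmp6 had 2.88, 8.70 and 5.88 CPM in arterial sums and 1 venous UMI in all, a ratio of 49.6-fold, with a 95% counting interval of 8.63 to 1983. The secreted BMP antagonist Grem1 was found in venous cells, at 19.5, 20.9 and 34.1 CPM against 0 UMIs in each arterial sum, at least 113-fold more. Tmem100, a target of endothelial BMP receptors, had 76.1, 123 and 179 against 17.1, 22.1 and 32.6 CPM (2.37 ± 0.11), and the inhibitory Smad6 51.9, 80.3 and 72.2 against 18.3, 18.6 and 24.8 CPM (1.71 ± 0.14), while Bambi, a decoy receptor, was venous at 60.2, 80.1 and 113 against 26.4, 23.6 and 24.3 CPM (-1.83 ± 0.15).

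Wnt pathway genes gave 9 arterial and 6 venous calls among 21. On the arterial side, Dkk2, a secreted modulator of Wnt receptors, had 8.89, 31.6 and 12.6 against 0.590, 0 and 0 CPM, a ratio of 147-fold, with a 95% counting interval of 26.2 to 5846 on 1 venous UMI, and Notum, a Wnt-inactivating enzyme, 34.8, 43.3 and 61.01 against 16.5, 23.3 and 22.2 CPM (1.13 ± 0.14). Reck, part of the receptor complex for WNT7, had 132, 280.2 and 171 against 26.5, 43.9 and 46.8 CPM (2.25 ± 0.16, adjusted p = 1.6e-05). The norrin and Wnt receptor Fzd4 was higher in venous cells, at 220.1, 213 and 208 against 202, 105 and 130.3 CPM (-0.66 ± 0.14, adjusted p = 0.01). Of the pathway's transcription factors, Tcf7 was arterial (0.95 ± 0.10) and Tcf7l1 venous (-1.17 ± 0.13). Fzd4 missed the threshold without the library block (adjusted p = 0.123) and with 0 UMIs of mural and myeloid genes (0.1).

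VEGF, angiopoietin and apelin genes had 13 arterial and 4 venous calls among 22. Aplnr, the apelin receptor, was venous with 57.2, 47.7 and 70.7 against 1.92, 1.49 and 1.22 CPM (-5.30 ± 0.21, adjusted p = 1.3e-16), and Kdr, the main VEGF receptor, leaned the same way with 464, 696 and 901 against 347, 395 and 556 CPM (-0.70 ± 0.07) and overlapping groups. Igfbp3, an IGF-binding protein, had 116, 133 and 86.3 against 1.77, 3.54 and 2.60 CPM (5.26 ± 0.17, adjusted p = 2.3e-18), Egfl8, a secreted EGF-domain protein, 230.4, 174 and 207 against 19.5, 7.07 and 16.7 CPM (3.83 ± 0.16) and Angpt2, the TIE2 ligand that loosens vessels, 8.89, 13.7 and 6.89 against 0.590, 2.36 and 1.44 CPM (2.57 ± 0.35). Vasomotor and flow genes gave 11 arterial and 9 venous calls among 26. The potassium channel genes Kcnj2 and Kcnn4 were higher in arterial cells. Kcnj2, the inward rectifier that senses potassium released by neurons, had 22.1, 49.7 and 51.9 against 0, 2.36 and 3.46 CPM (4.23 ± 0.24, adjusted p = 2.4e-13). Kcnn4, the calcium-activated channel of endothelial hyperpolarisation, had 5.04, 11.4 and 4.86 against 0, 0.295 and 0 CPM, a ratio of 59.3-fold, with a 95% counting interval of 10.4 to 2369 on 1 venous UMI. Edn3, an endothelin, had 218, 153 and 247 against 89.7, 119 and 144 CPM (0.73 ± 0.12, adjusted p = 0.0015). The CGRP and adrenomedullin receptor genes Calcrl and Ramp2 were venous, at -0.84 ± 0.08 and -0.81 ± 0.07. The nitric oxide synthase gene Nos3 had 283, 204 and 225 CPM in venous and 223, 207 and 218 CPM in arterial sums (-0.17 ± 0.08, adjusted p = 0.13). Kdr and Ramp2 missed the threshold without the library block (adjusted p = 0.0645 and 0.121), and Edn3 in cells with no UMI of any marker of the other class (0.212).

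Coagulation genes had 3 arterial and 7 venous calls among 17. The arterial count was near the share of all tested genes, 16.7%. Coagulation factor V, F5, had 38.3, 55.7 and 47.9 CPM in venous, 32.9, 43.7 and 32.99 CPM in other endothelial and 4.80, 2.98 and 7.09 CPM in arterial sums (-3.26 ± 0.20, adjusted p = 6.2e-12). On the venous side, Cd55, a complement decay factor, had 15.3, 12.1 and 12.7 against 2.64, 3.73 and 5.27 CPM (-1.77 ± 0.27), and Tfpi, an inhibitor of the tissue factor pathway, 38.9, 46.6 and 51.9 against 23.1, 23.4 and 29.4 CPM (-0.91 ± 0.12). On the arterial side Plat, tissue plasminogen activator, had 329, 309 and 261 against 245, 236 and 138 CPM (0.53 ± 0.09), and Entpd1, which degrades extracellular ATP, 208, 251 and 233 against 115, 168 and 158 CPM (0.61 ± 0.07). Thbd, thrombomodulin, had 405, 235 and 163 CPM in venous and 166, 149 and 141 CPM in arterial sums and did not pass (adjusted p = 0.23). F5 missed the threshold with 0 UMIs of mural and myeloid genes (-3.04, adjusted p = 0.0767), Cd55 in cells with no UMI of any marker of the other class (0.0575) and Plat without the library block (0.306).

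Interferon and antigen presentation genes were divided, with 8 arterial and 13 venous calls among 32. Irf7, a master regulator of the response, had 123, 86.3 and 127 against 49.6, 25.04 and 42.7 CPM (1.51 ± 0.11), whereas Ifitm1, a membrane protein that restricts viral entry, had 33.04, 45.7 and 82.3 against 2.88, 1.99 and 1.42 CPM (-4.76 ± 0.26, adjusted p = 1.2e-10). Immediate-early and dissociation stress genes had 14 venous calls and 1 arterial one among 27, with a median of -0.50. In venous against arterial sums, Ier3, a stress-induced survival gene, had 1661, 1441 and 895 against 253, 193 and 194 CPM (-2.66 ± 0.13), Zfp36, which destabilises inflammatory mRNAs, 1006, 1112 and 691 against 280.1, 496 and 278 CPM (-1.49 ± 0.19) and Junb, an AP-1 subunit, 2379, 2160.2 and 1477 against 807, 1120.5 and 781 CPM (-1.19 ± 0.21, adjusted p = 0.043). Fos had 1840.1, 1968 and 1199 CPM in venous and 797, 1580.2 and 776 CPM in arterial sums and did not pass (adjusted p = 0.21). The greater depth and mitochondrial share of venous cells, given above, moved with these genes, and their part in the result was not tested. The actin list gave 12 arterial and 10 venous calls among 32, led by the actin-sequestering thymosin Tmsb10, which had 5584, 1709 and 3229.5 CPM in venous and 788, 157 and 363 CPM in arterial sums (-3.19 ± 0.08, adjusted p = 4.9e-14). On the arterial side Lmna, the lamin A gene, had 114, 77.3 and 107 against 33.04, 30.1 and 35.2 CPM (1.52 ± 0.10). Zfp36 and Junb missed the threshold in cells with no UMI of any marker of the other class (adjusted p = 0.124 and 0.201), Zfp36 also with gates on thinned cells (0.105) and Junb without the highest Scrublet doublet scores (0.0517).

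Cells within a class were not alike. To compare shares of cells with at least 1 UMI, every cell was thinned to 2000 UMIs, which left out 48 arterial, 6 venous and 71 microglial cells with fewer. Microglia give the share that free RNA alone may reach. Alpl was detected in 47.6, 50.2 and 48.02% of arterial cells of libraries 1, 2 and 3, in 0, 3.10 and 0.543% of venous cells and in 0.704, 0 and 1.80% of microglia. With all UMIs these were 77.6, 76.5 and 81.6%, 6.82, 10.9 and 6.99% and 0.658, 0.826 and 1.68%. Fbln5 was found in 4.80, 14.1 and 6.78% of arterial cells and 0, 0 and 0% of microglia, so most arterial cells had no UMI of it at that depth, nor with all UMIs (7.36, 18.6 and 10.1%).

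Slc38a5 was detected in 73.6, 62.4 and 72.8% of venous cells, 5.35, 4.59 and 5.46% of arterial cells and 1.41, 2.94 and 0% of microglia after thinning (97.7, 94.8 and 97.8%, 12.2, 9.54 and 15.5% and 1.32, 2.48 and 1.68% with all UMIs). Nr2f2 was found in 42.5, 38.05 and 52.7% of venous cells, 1.48, 1.41 and 1.88% of arterial cells and 0, 1.47 and 0.901% of microglia after thinning (94.3, 86.03 and 89.2% of venous cells with all UMIs). Lcn2 was detected in fewer venous cells, 11.5, 16.8 and 17.9% after thinning and 47.7, 51.5 and 51.1% with all UMIs, against 0.553, 0.177 and 0.565% of arterial cells and 0, 0 and 0.901% of microglia after thinning. Cldn5 was found in 99.6, 98.8 and 99.8% of arterial and 98.8, 99.1 and 100.0% of venous cells after thinning, against 9.15, 20.6 and 8.11% of microglia.

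Levels also changed with the number of gate genes a cell expressed, from 0 to all 6. Along the arterial gate genes, Fbln5 went from 0.471 ± 0.309 CPM (SD, n = 3 libraries) at 0 genes to 46.9 ± 31.9 CPM at 3 and 411 ± 217 CPM at 6, and Mgp from 12.7 ± 7.78 CPM to 481 ± 369 CPM and 2616 ± 712 CPM. Cxcl12 was highest in between, with 3331 ± 634 CPM at 2 genes against 1741 ± 409 CPM at 6, and Mfsd2a had 346 ± 35.04 CPM at 3 and 186 ± 64.5 CPM at 6. Car4, a carbonic anhydrase of capillaries, went down from 966 ± 199.5 CPM at 0 to 94.7 ± 43.2 CPM at 6. Cells with more gate genes were deeper, with median UMIs of 4403, 4300 and 5250 at 3 arterial genes and 11953, 10404 and 13085 at 6.

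Along the venous gate genes, Lcn2 went from 1.32 ± 0.413 CPM at 0 to 36.5 ± 8.64 CPM at 3 and 243 ± 40.1 CPM at 6, and Vcam1 from 15.2 ± 7.59 CPM to 444 ± 131 CPM and 766 ± 86.2 CPM. Slc38a5 was already at 518 ± 58.98 CPM with 2 venous genes and reached 792 ± 104 CPM with 6. Car4 was 997 ± 189.9 CPM at 1, 681 ± 101 CPM at 3 and 70.1 ± 37.6 CPM at 6, and Tfrc went from 479.8 ± 43.8 CPM at 0 to 48.7 ± 15.6 CPM at 6. Vcam1 had a second, lower peak at the arterial end, where it was 280.2 ± 120.5 CPM with 6 arterial genes against 70.95 ± 4.28 CPM with 3. Not every leading gene rose from 3 to 6 genes of its gate: 10 of 12 arterial and 8 of 12 venous ones did so in all libraries. Depth rose here too, with median UMIs of 15023, 9346 and 12253 at 3 venous genes and 27434, 20839 and 23561 at 6.

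**Figure D4:**
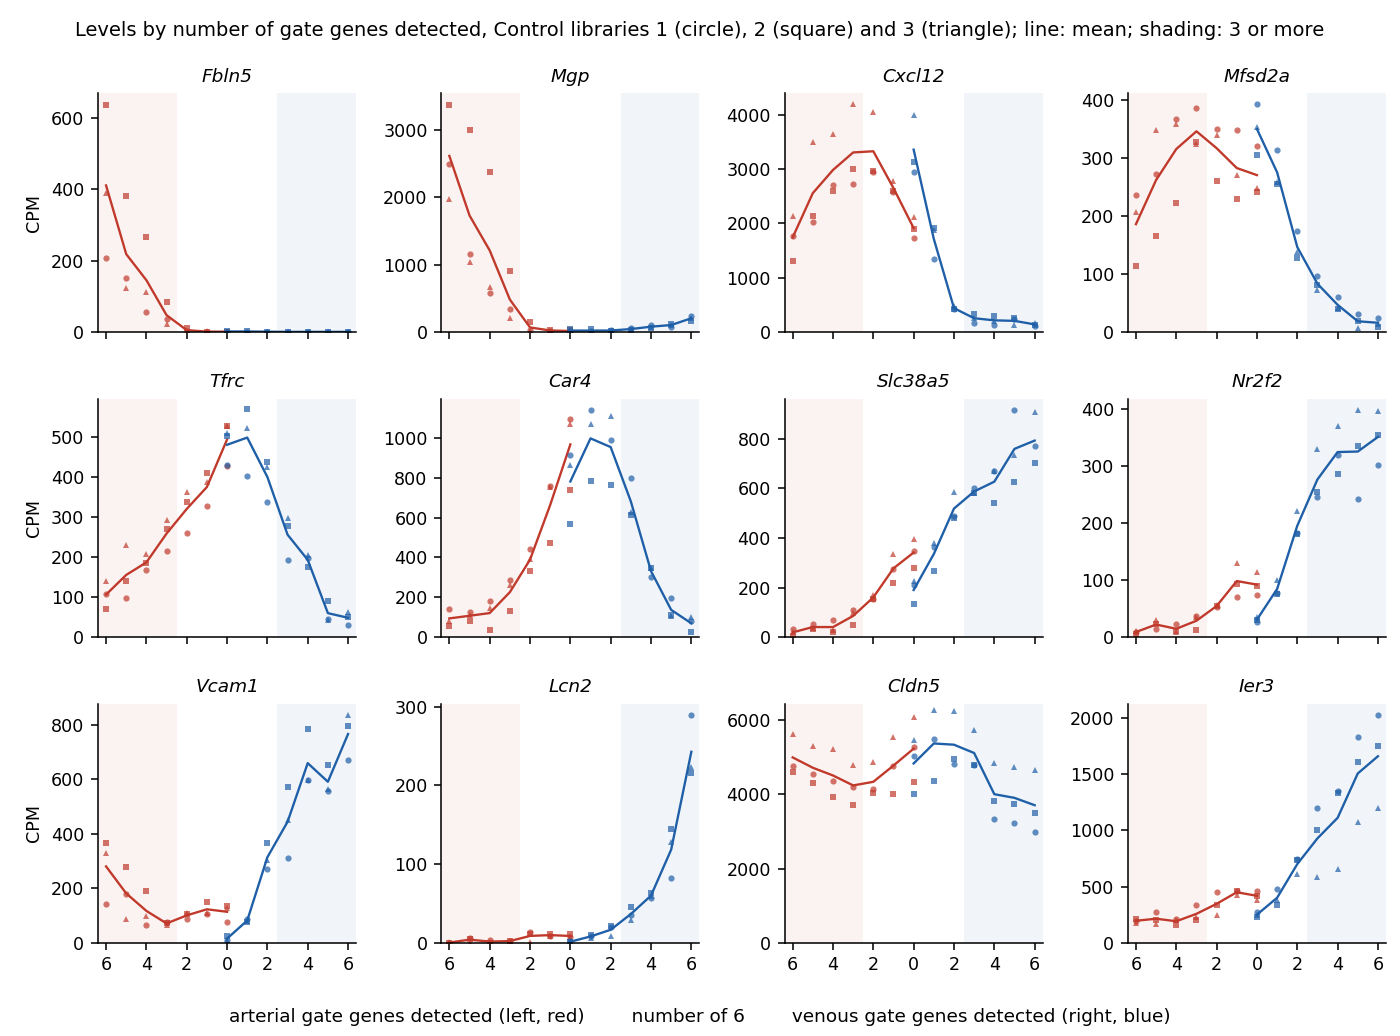
CPM of 12 genes (vertical axes, from 0) by the number of the 6 arterial gate genes (left side, red) or venous gate genes (right side, blue) detected in a cell, with 1 point per Control library and a line through the mean. Shading marks cells with 3 or more genes, and Fbln5, Mgp and Lcn2 are steep inside it. Mfsd2a and Cxcl12 reach from the capillary into the arterial side, and Tfrc and Car4 are highest in the middle. Cells with 0 genes of 1 gate include cells of the other gate.

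The same gates were applied to the 3 Cldn5 iECKO libraries, which the choice of cells did not use and which share no sample with the Control libraries. They gave 549, 219 and 408 arterial and 245, 164 and 145 venous cells. Cldn5 was 1894, 1761 and 2526 CPM in their arterial, 2321, 2114 and 3278 CPM in their venous and 3082, 2398 and 3303 CPM in their other endothelial sums, below every Control value of the same class. In these libraries 1519 of 10669 genes were higher in arterial and 1563 in venous cells by the same test, which is 14.2% and 14.6%. Of the Control calls that could be tested there, 1157 of 1754 arterial and 1227 of 1859 venous ones were called in the same direction, 66.0% of each, and these were 76.2% and 78.5% of the iECKO calls. Of those with a log2 difference of at least 2 in Control, 204 of 206 and 152 of 158 were called again. In the opposite direction 4 and 4 were called.

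The cells of these libraries were gated on the same genes, so the same limit on what the test measures holds. Leading genes went the same way as in Control. Alpl had 148, 268 and 304 CPM in arterial and 1.72, 2.72 and 3.18 CPM in venous iECKO sums (6.47 ± 0.15, adjusted p = 3.3e-22), Slc38a5 19.5, 37.7 and 48.4 and 359, 524 and 632 CPM (-3.94 ± 0.10) and Nr2f2 14.6, 10.99 and 15.3 and 325, 336 and 337 CPM (-4.61 ± 0.11). Mgp, which had not passed in Control, had 2375, 1713 and 1338 and 121, 124 and 102 CPM (3.90 ± 0.10, adjusted p = 5.5e-16). Fbln5, at 0 UMIs in Control venous sums, had 0.490, 0.544 and 0.398 CPM in venous and 117, 137 and 124 CPM in arterial iECKO sums. Some lists divided differently. Interferon and antigen presentation genes had 11 arterial and 6 venous calls among 30, against 8 and 13 among 32 in Control. Leukocyte adhesion and chemokine genes had 9 and 3 against 6 and 6, among 19 in each genotype. Coagulation genes had 5 and 5 among 16 against 3 and 7 among 17, and barrier transporters 12 and 15 against 15 and 14, among 40 in each. The shares of all tested genes were 14.2% arterial and 14.6% venous in iECKO libraries, against 16.7% and 17.7% in Control. The 3 venous adhesion calls in iECKO libraries were near that share. These differences in counts between genotypes were not tested.

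Whether the arterial-venous difference itself differed between genotypes was tested with the product of class and genotype over all 12 sums. It passed for 27 of 11235 genes (0.24%), 14 upward and 13 downward. Among genes that averaged at least 5 in log2 CPM, the largest product belonged to Igfbp3 (chromosome 11, 7206086 to 7213923, minus strand). Its venous level was 1.77, 3.54 and 2.60 CPM in Control and 121, 44.1 and 15.5 CPM in iECKO libraries, and its arterial level 116, 133 and 86.3 and 519.5, 151 and 39.4 CPM, so the log2 difference was 5.26 ± 0.17 in Control and 1.83 ± 0.11 in iECKO (product -3.41 ± 0.25, adjusted p = 3.1e-08). The iECKO libraries varied widely for it in both classes. Dll4 had 4.72, 15.6 and 18.2 CPM in Control and 58.1, 54.98 and 27.9 CPM in iECKO venous sums (product -1.29 ± 0.19, adjusted p = 0.0056), and Mfsd2a 49.6, 35.9 and 34.6 and 69.6, 58.2 and 50.9 CPM (product -0.87 ± 0.14, adjusted p = 0.0056). For these 3 genes every iECKO venous sum was above every Control one. Igfbp3 and Dll4 passed without each of the 6 libraries in turn, whereas Mfsd2a missed the threshold without Control library 3 (-0.71, adjusted p = 0.0742). Without Control libraries 1 and 3 in turn, 12 and 10 genes passed, and without iECKO libraries 1 and 3 in turn 17 and 86. Without the library block 0 genes passed this product test in edgeR, where 188 had an unadjusted p under 0.05, against 933 with it, and DESeq2 called 24.

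**Figure D5:**
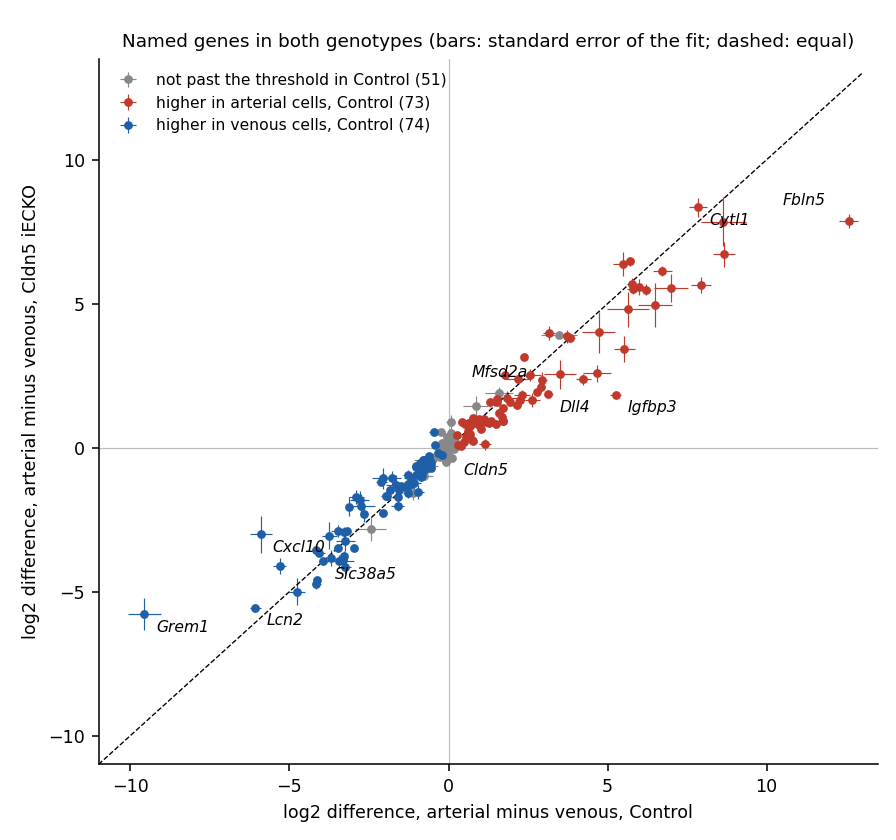
Log2 difference between arterial and venous cells of the Control libraries (horizontal axis) and of the Cldn5 iECKO libraries (vertical axis) for 198 named genes tested in both, with bars for the standard error of the fit and a dashed line for equality. Of 147 genes called in Control, 145 have the same sign in both genotypes. Procr of the coagulation list (-0.46 ± 0.15 in Control and 0.53 ± 0.13 in iECKO) and the caveolar gene Cavin3 (-0.42 ± 0.08 and 0.11 ± 0.08) change sign. Procr was called venous in Control and arterial in iECKO, Cavin3 only in Control, and the product of class and genotype passed for both. Igfbp3, Dll4 and Mfsd2a lie below the line.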

How the data were processed

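Microvessels of adult mouse brain were measured by 3' single-cell RNA-seq in 3 Control and 3 Cldn5 iECKO libraries, grouped by their labelled genotype. The deposited values are raw UMI counts per gene and cell that the authors obtained from Cell Ranger (version 6.1.1 in the file headers) on mm10, per the submitters' processing notes. No normalization had been applied to these counts, and no annotation of cells was used. The members, gates and gene lists were chosen with earlier results of these data known.

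Counts were summed per library and class. Arterial and venous sums were compared with edgeR 4.0.16 (TMM scaling, filterByExpr, robust quasi-likelihood test, library as block, R 4.3.3), and p-values were adjusted over all genes by Benjamini-Hochberg. The 24 gate genes stayed in library sizes and were not tested. Library numbers pair the classes because both classes come from the same library: same-library deviations correlated at 0.556, 0.534 and 0.374 across genes. CPM values are shares of each sum, with no correction for gene length, so levels are compared between classes and not between genes. Standard errors come from the fit. Named genes were the 12 largest differences each way that averaged at least 5 in log2 CPM and showed no overlap between groups, then up to 4 called members each way and 3 not passing per list. Members of the marker lists for further arterial, venous and capillary genes were also named, with their values known. Predicted, ribosomal, mitochondrial and Y-linked genes and Xist were not named, and some list members are not reported here.

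A fold against 0 UMIs was set against a floor of 3 counts over the group, and ratios on 1 to 3 UMIs carry exact 95% intervals. These cover counting error only. Scrublet through scanpy 1.11.5 marked 0 to 3 barcodes per library with its own threshold and so did not work, and removing the highest scores was an alternative. Alternatives were DESeq2 1.42.0, other scaling, filters, gates, depths and left-out libraries. On simulated counts for arterial against venous Control sums (10716 to 10762 genes tested), 95% to 96% of genes changed by log2 1 and 100% of those changed by log2 2 were recovered, with at most 10 false calls. The simulation gave every gene the same dispersion (0.00699) and changed only genes above a minimum mean count. Its rates therefore do not carry over to low genes or to genes that vary more between libraries. Gene positions are from GENCODE M21 (GRCm38), which held 32158 of 32286 gene IDs.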

Additional observations from a re-analysis of the deposited data

Results flagged for a closer look

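Each difference here was tested as the product of class and genotype with edgeR's quasi-likelihood test and Benjamini-Hochberg adjustment, over 12 sums from 6 libraries, and is given as the arterial-venous log2 difference in Cldn5 iECKO minus that in Control libraries. The difference passed the threshold for 27 genes, 14 upward and 13 downward. Those given are Cldn5 and the 5 largest each way among genes that averaged at least 5 in log2 CPM. Whether the libraries of both genotypes were prepared together is not given in the labels, so a batch and the genotype cannot be told apart.

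Cldn5, the gene deleted in the iECKO mice, had a product of -0.46 ± 0.08 (adjusted p = 0.0095). Its iECKO level was 1894, 1761 and 2526 CPM in arterial and 2321, 2114 and 3278 CPM in venous sums, lower in arterial cells in each of the 3 libraries, while in Control it was higher in arterial cells in each of the 3. Without Control library 1 the product was -0.40 and did not pass (adjusted p = 0.0705).

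Of the other downward products, the 5 largest at that level belonged to Igfbp3, at -3.41 ± 0.25 (adjusted p = 3.1e-08), Dll4, at -1.29 ± 0.19 (0.0056), Hrct1, at -1.05 ± 0.22 (0.042), Fat4, a large cadherin gene, at -0.90 ± 0.18 (0.033), and Mfsd2a, at -0.87 ± 0.14 (0.0056). Hrct1 had 90.1, 70.4 and 86.5 CPM in arterial and 10.03, 6.19 and 7.50 CPM in venous Control sums, against 96.1, 91.03 and 76.00 and 20.1, 17.96 and 12.3 CPM in iECKO. For Fat4 these were 55.5, 75.6 and 86.5 and 12.98, 26.8 and 30.02 CPM in Control, against 33.5, 54.4 and 57.6 and 21.3, 27.8 and 37.4 CPM in iECKO. Hrct1 and Fat4 each missed the threshold in 5 of 6 fits that left out 1 library.

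The 5 largest upward products at that level belonged to Relb, an NF-kappaB subunit, at 1.06 ± 0.20 (adjusted p = 0.03), Lrrc32, which anchors latent TGF-beta, at 1.00 ± 0.17 (0.0095), Sox4, a transcription factor, at 0.94 ± 0.17 (0.014), Il2rg, the shared receptor chain of several interleukins, at 0.82 ± 0.16 (0.032), and Slc16a9, a monocarboxylate transporter family member, at 0.71 ± 0.15 (0.043). Lrrc32 had 64.4, 35.8 and 58.8 CPM in arterial and 32.4, 26.5 and 45.02 CPM in venous Control sums, against 168, 97.3 and 73.9 and 50.2, 32.1 and 31.04 CPM in iECKO. For Sox4 these were 26.9, 40.3 and 76.8 and 16.5, 37.1 and 86.00 CPM in Control, against 108, 80.04 and 119 and 46.8, 43.5 and 64.9 CPM in iECKO. Relb, Lrrc32, Sox4, Il2rg and Slc16a9 each missed the threshold without iECKO library 1 and without Control library 3. Relb and Il2rg also missed it without Control library 1, and Slc16a9 in 5 of the 6 such fits. With DESeq2, Lrrc32, Sox4, Il2rg and Slc16a9 missed it. None of these products passed without the library block.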

How the results depend on the processing

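The alternatives were followed for 122 named genes and not for every named gene. Among these 122, no alternative reversed the direction of a call except for Tfrc (-0.033 with at least 2 of 6 gate genes). Of their 2264 alternative values, 2178 kept direction and side of the threshold, 38 lost the call, 42 gained it and 6 changed sign. The other sign changes were Cldn5 (-0.065, at least 2 of 6 gate genes), Slc2a1 (-0.0075 with no replicate block, and -0.10 to 0.28 without each Control library in turn, below 0 without library 3), Eln (-0.99, no UMI of any marker of the other class) and Nos3 (0.094, gates on thinned cells), none of which had passed; under its alternative Eln passed as venous (adjusted p = 0.0226). The counts of 1793 arterial and 1903 venous genes became 918 and 979 with DESeq2, 803 and 749 with no replicate block, 877 and 918 with 88 cells per class and library, and 695 and 734 with cells thinned to 2000 UMIs. With no UMI of any marker of the other class 1186 were arterial, and with gates on thinned cells, chosen after seeing the data, 1227 were venous. Without each Control library in turn they ranged from 1399 to 1649 and from 1461 to 1665. In iECKO libraries, DESeq2 gave 742 and 767 and no replicate block 538 and 497. The genotype product gave 142 genes with no filter on low counts, 0 with no replicate block and 10 to 86 without each library in turn. Of 107 alternative values of the 11 products given above, 65 kept the call, 42 lost it and 0 changed sign. The mean share of arterial cells, 14.3%, was 8.66% with at least 4 gate genes, 23.5% with at least 2 and 6.66% with gates on thinned cells. The venous share, 4.33%, was 7.53% with at least 2 and 1.96% with gates on thinned cells. The cause of these shifts was not tested, beyond fewer cells or UMIs where an alternative removes them. Clu (5.51, adjusted p = 0.056) missed the threshold with equal cell numbers, and Adh1 (-3.52, 0.0503) with the highest Scrublet scores removed. Library 1 had 88 venous cells, which limits low venous genes.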
